A study of Homo sapiens with 6 samples.

Results

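The mitochondrial ribosomal protein genes are the nuclear genes for the proteins of the ribosome inside mitochondria. They were taken from the deposited gene count table as every protein-coding row whose symbol begins with MRPL or MRPS followed by a digit, which gave 78 of the 58735 genes. All 78 passed the filter on low counts, among 15496 genes tested. By the current protein names, 51 code for proteins of the large subunit and 26 for proteins of the small subunit. MRPS36 belongs to neither, because its product is known as a subunit of the 2-oxoglutarate dehydrogenase complex.

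RNA sequencing was done on SW1990, an established line of pancreatic ductal adenocarcinoma cells. The EPZ-5676 group held 3 libraries from cells given 5 µM EPZ-5676 (pinometostat), an inhibitor of DOT1L, an enzyme that methylates histone H3. The control group held 3 libraries; the treatment protocol gives these cells DMSO in equal volume, whereas the sample characteristics call them untreated. No treatment time is stated in the sources used here. No label says whether replicates came from separate cultures, and p-values therefore measure the spread between these libraries, which may be technical. The libraries held 33970420 to 39749648 reads counted to genes. In bulk RNA, a change in the number of cells of one kind and a change in RNA per cell cannot be told apart. Levels are given as read counts per 1e6 reads of the library, scaled by TMM (CPM). The epithelial keratins KRT7, KRT8 and KRT18 were abundant, and KRT8 had 3974, 3095 and 3220 CPM in the EPZ-5676 libraries, against 2724, 2832 and 2418 CPM in the controls. The epithelial mucin gene MUC1 was at 36.7 ± 6.40 CPM in EPZ-5676 cells and 32.8 ± 8.91 CPM in controls (SD, n = 3 each). The other defining epithelial markers were near 0: EPCAM was at 1.08 ± 0.376 CPM in EPZ-5676 cells and 1.89 ± 0.614 CPM in controls (SD, n = 3 each), KRT19 was lower still and CDH1 had no reads. The 12 markers of immune, endothelial, fibroblast, acinar and islet cells summed to 15.8, 12.7 and 11.1 CPM in the EPZ-5676 libraries, against 13.2, 18 and 11.4 CPM in the controls, and 4 of them, for acinar and islet cells, had no reads. Of the 4 that passed the filter on low counts, the fibroblast gene LUM was lower in the test described below, with 1.29, 2.34 and 1.82 CPM in the EPZ-5676 libraries, against 3.92, 3.55 and 3.75 CPM in the controls (log2 fold change -1.04, adjusted p = 0.0105), and its part in the results was not tested. Control 2 stood apart in the leukocyte gene PTPRC, with 4.38 CPM against at most 0.228 CPM in any other library. The immune gene CD3E and the fibroblast gene COL1A2 had reads in control 2 alone, at 0.401 and 0.114 CPM. Without control 2 the test described below called 20 of the 78 genes higher and 19 lower.

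The mitochondrial ribosome translates the few messenger RNAs of mitochondrial DNA, all of which code for subunits of the respiratory chain and ATP synthase. Its RNAs come from mitochondrial DNA, while all of its proteins are made in the cytosol from nuclear genes and imported. Some of these proteins have bacterial counterparts (names beginning with u or b, such as uL3m), and others exist only in mitochondrial ribosomes (names beginning with m, such as mL39).

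The members differ widely in base composition, and their fold changes were ordered by it, so the middle 90 bases of the coding sequence are shown for the members with the 2 largest falls (MRPL47 and MRPL3) and the 2 largest rises (MRPS18A and MRPL4). The sequences are those of GENCODE release 29 transcripts (GRCh38), 5′ to 3′, with G and C in capitals. These bases span coding positions 331 to 420 of MRPL47, 478 to 567 of MRPL3, 250 to 339 of MRPS18A and 422 to 511 of MRPL4.
MRPL47: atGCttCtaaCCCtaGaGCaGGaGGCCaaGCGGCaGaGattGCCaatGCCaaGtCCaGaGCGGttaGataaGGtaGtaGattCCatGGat
MRPL3: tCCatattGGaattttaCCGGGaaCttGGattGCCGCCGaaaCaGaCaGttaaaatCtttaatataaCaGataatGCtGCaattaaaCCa
MRPS18A: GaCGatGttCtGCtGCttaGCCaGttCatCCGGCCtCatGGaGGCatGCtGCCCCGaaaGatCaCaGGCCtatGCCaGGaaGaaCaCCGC
MRPL4: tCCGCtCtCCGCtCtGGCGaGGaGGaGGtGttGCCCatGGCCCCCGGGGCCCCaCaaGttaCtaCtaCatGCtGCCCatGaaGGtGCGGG
G and C make up 45 of the 90 bases in MRPL47 and 32 in MRPL3, against 52 in MRPS18A and 59 in MRPL4. Over the whole coding sequence the GC content was 42.5% and 44.4% in the pair that fell, and 58.0% and 65.2% in the pair that rose.

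As a family the genes moved in both directions. With EPZ-5676, 17 of the 78 were higher (adjusted p under 0.05, edgeR quasi-likelihood test over all genes), where 15.0% of all genes tested were higher, and 20 were lower, where 18.7% of all genes were lower. The remaining 41 did not pass the threshold. The median log2 fold change (EPZ-5676 over control) was -0.02 over the 78 genes and -0.05 over all genes tested, and no member changed 2-fold or more. The members' log2 fold changes ran from -0.86 for MRPL47 to 0.58 for MRPS18A, with an SD of 0.39, against 0.58 over all genes. All 3 EPZ-5676 libraries lay above all 3 controls for 22 members (21.8% of all genes), and below them for 26 (24.2% of all genes).

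The summed level of the 78 genes was 5423, 4948 and 4885 CPM in the EPZ-5676 libraries, against 4969, 5011 and 4510 CPM in the controls. The groups overlapped, at 5085 ± 294 CPM in EPZ-5676 cells and 4830 ± 278 CPM in controls (SD, n = 3 each), a ratio of 1.05. The large-subunit genes summed to 3438 ± 222 and 3229 ± 215 CPM in EPZ-5676 cells and controls, and the small-subunit genes to 1640 ± 75 and 1589 ± 61 CPM. Fold changes spread widely around these nearly level sums.

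**Figure D1:**
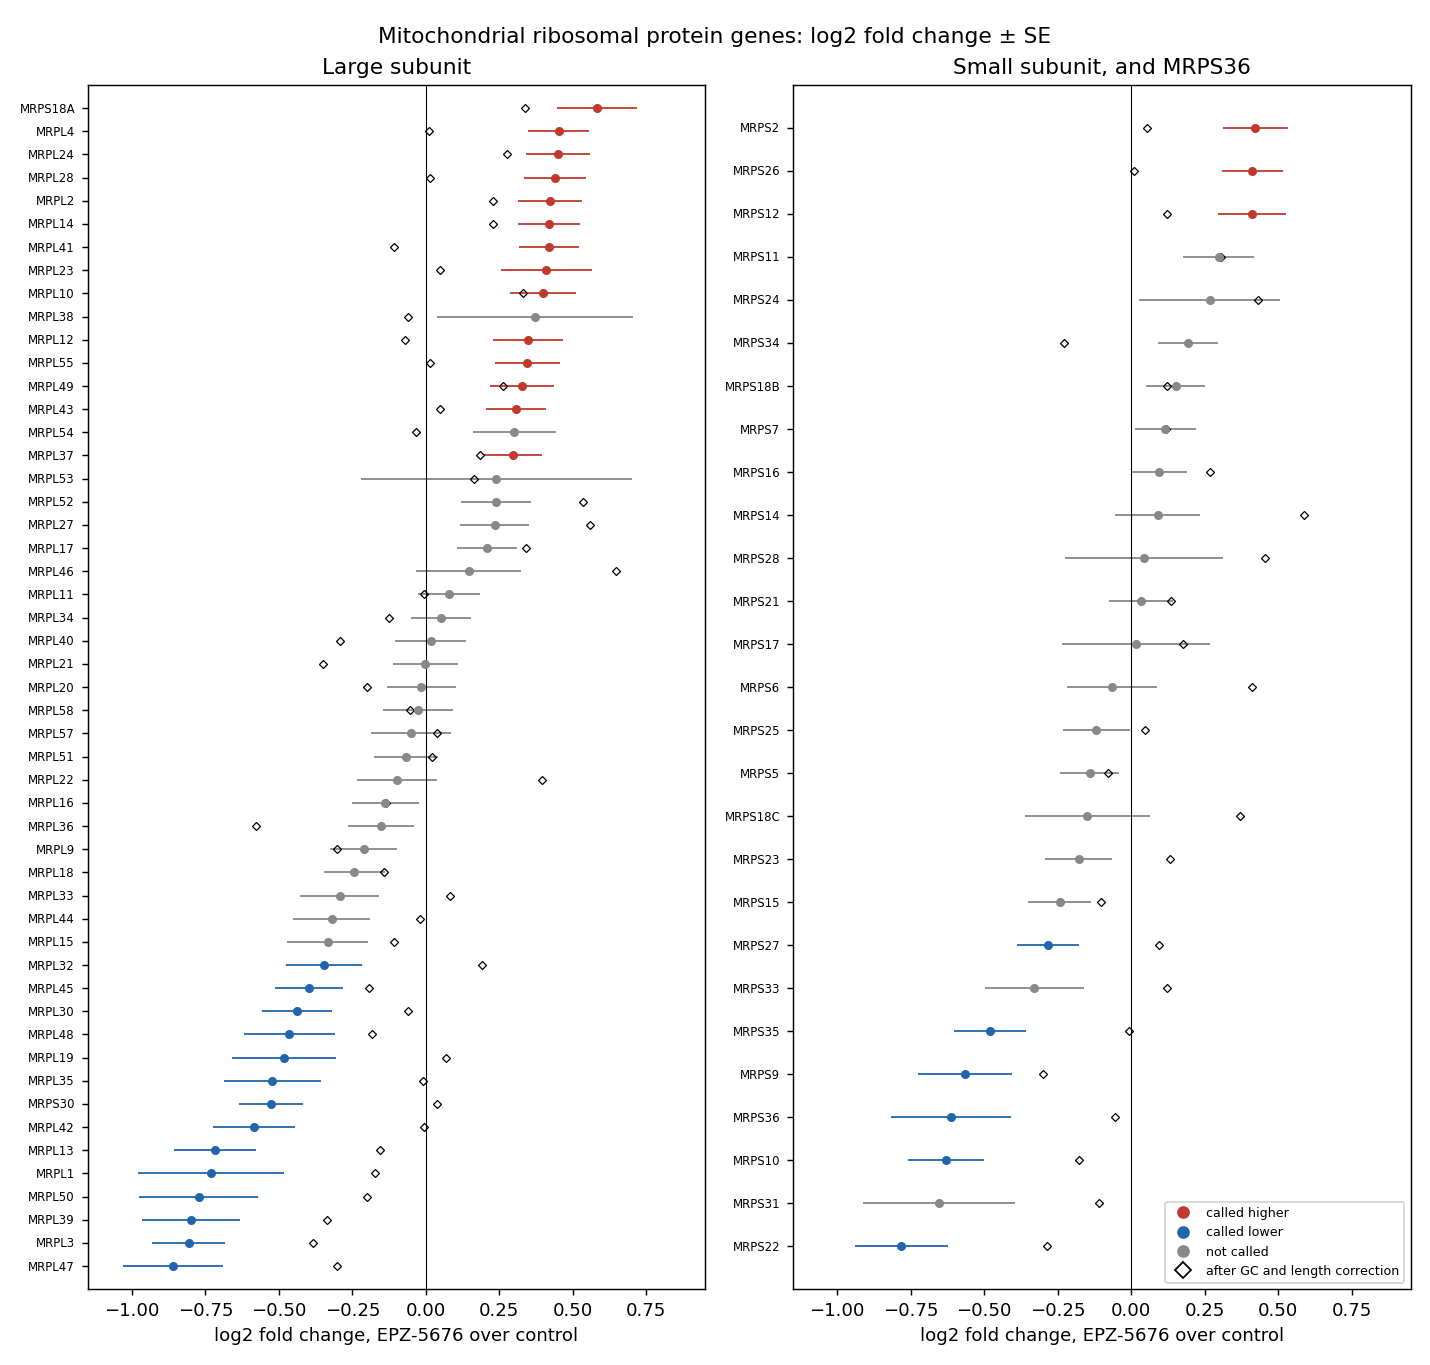
Log2 fold change (EPZ-5676 over control, horizontal axis) of the 78 genes, with the large subunit on the left and the small subunit with MRPS36 on the right. Filled points with bars are the estimate ± SE, coloured by call, and open diamonds are the estimate after the GC and length correction. Estimates run from -0.86 to 0.58 before the correction, and most diamonds of the called genes lie closer to 0.

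Both subunits held genes of either direction. In the large subunit 14 of 51 genes were higher and 14 lower, and in the small subunit 3 of 26 were higher and 5 lower. Genes for proteins with bacterial counterparts counted 11 higher and 10 lower of 46, and those for mitochondria-specific proteins 6 higher and 9 lower of 31. The medians of the log2 fold changes were -0.02 for the large and -0.02 for the small subunit, and 0.01 for the conserved and -0.05 for the mitochondria-specific proteins. No test of a difference between these groups of genes was made.

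Among the large-subunit genes, MRPL47, for the exit-tunnel protein uL29m, fell most. It had 9.82, 9.80 and 13.2 CPM in the EPZ-5676 libraries, against 22.6, 19.8 and 17.2 CPM in the controls, and the groups did not overlap. Its log2 fold change was -0.86 ± 0.17 (SE; adjusted p = 0.00101). MRPL3 encodes uL3m, which reaches towards the centre where peptide bonds form. Its level was 50.3, 59.0 and 66.7 CPM in the EPZ-5676 libraries, against 119, 99.0 and 90.3 CPM in the controls. All 3 treated values lay below all 3 controls, and the log2 fold change was -0.81 ± 0.12 (adjusted p = 0.000137). MRPL39, for mL39, had 14.6, 11.9 and 14.0 CPM in the EPZ-5676 libraries, against 28.9, 21.9 and 19.6 CPM in the controls (log2 fold change -0.80 ± 0.17, adjusted p = 0.0014). The groups were again apart.

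MRPL13, for uL13m, also fell. It had 24.9, 20.1 and 21.2 CPM in the EPZ-5676 libraries, against 41.0, 36.0 and 31.8 CPM in the controls (log2 fold change -0.72 ± 0.14, adjusted p = 0.000871). MRPL50, for mL50, and MRPL1, for the protein of the L1 stalk, lay at lower levels. MRPL50 had 5.57, 6.38 and 4.86 CPM in the EPZ-5676 libraries, against 10.7, 8.07 and 9.92 CPM in the controls (log2 fold change -0.77 ± 0.20, adjusted p = 0.0064). MRPL1 had 4.47, 3.48 and 3.82 CPM in the EPZ-5676 libraries, against 8.52, 6.38 and 4.61 CPM in the controls (log2 fold change -0.73 ± 0.25, adjusted p = 0.0279), and its call was lost without control 1, EPZ-5676 2 or EPZ-5676 3. MRPL42, for mL42, had 18.4, 16.9 and 18.7 CPM in the EPZ-5676 libraries, against 27.8, 27.9 and 25.5 CPM in the controls, with little spread inside either group (log2 fold change -0.58 ± 0.14, adjusted p = 0.00328).

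The largest rise was that of MRPS18A, which despite its symbol encodes a large-subunit protein, mL66. It had 44.5, 40.7 and 36.7 CPM in the EPZ-5676 libraries, against 23.5, 31.2 and 26.8 CPM in the controls, with no overlap (log2 fold change 0.58 ± 0.14, adjusted p = 0.00289). MRPL4, for uL4m, a protein that lines the exit tunnel, had 87.2, 81.9 and 77.1 CPM in the EPZ-5676 libraries, against 58.8, 62.2 and 58.9 CPM in the controls (log2 fold change 0.45 ± 0.10, adjusted p = 0.00276). Both groups of MRPL4 values were tight and apart. MRPL24, for uL24m, had 157, 138 and 125 CPM in the EPZ-5676 libraries, against 105, 109 and 93.4 CPM in the controls (log2 fold change 0.45 ± 0.11, adjusted p = 0.00353). MRPL28, for bL28m, had 253, 202 and 209 CPM in the EPZ-5676 libraries, against 162, 171 and 156 CPM in the controls (log2 fold change 0.44 ± 0.10, adjusted p = 0.00352). In each of these genes every treated library exceeded every control, and EPZ-5676 1 was the highest of the 6.

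MRPL2, MRPL14 and MRPL41 rose by nearly the same factor, with log2 fold changes of 0.42 ± 0.11, 0.42 ± 0.11 and 0.42 ± 0.10 (adjusted p = 0.00558, 0.00505 and 0.00401). MRPL2 encodes uL2m, at the core of the large subunit, and had 120.5, 102 and 108 CPM in the EPZ-5676 libraries, against 73.2, 89.9 and 82.9 CPM in the controls. MRPL14 encodes uL14m, on the face that meets the small subunit, and had 129.6, 114 and 108 CPM in the EPZ-5676 libraries, against 86.0, 94.96 and 82.0 CPM in the controls. MRPL41 encodes mL41 and had 146, 122 and 128 CPM in the EPZ-5676 libraries, against 102, 98.3 and 95.3 CPM in the controls. The groups were apart for all 3 genes.

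MRPL10 (uL10m) and MRPL12 (bL12m) encode 2 of the proteins of the stalk that recruits translation factors, and both genes rose. They do not stand for the stalk as a whole. MRPL10 had 126, 108 and 107 CPM in the EPZ-5676 libraries, against 73.9, 94.8 and 90.4 CPM in the controls (log2 fold change 0.40 ± 0.11, adjusted p = 0.00982), and its call was lost without EPZ-5676 1 (adjusted p = 0.0593). MRPL12, named here after its values were seen, had 53.2, 44.7 and 49.7 CPM in the EPZ-5676 libraries, against 37.9, 42.4 and 35.7 CPM in the controls (log2 fold change 0.35 ± 0.12, adjusted p = 0.0286), and omitting any of 4 libraries ended its call. With the correction for GC content and length described below, its log2 fold change turned to -0.07 (adjusted p = 0.704). Of the exonic bases of MRPL12, 68.2% are shared with another annotated gene on the same strand, which was listed with no reads.

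Among the small-subunit genes called lower, MRPS22 and MRPS10 fell most. MRPS22 encodes mS22, a mitochondria-specific protein in which inherited mutations cause a combined respiratory chain deficiency. It had 15.3, 17.8 and 21.2 CPM in the EPZ-5676 libraries, against 37.2, 28.5 and 27.5 CPM in the controls (log2 fold change -0.78 ± 0.16, adjusted p = 0.00111). MRPS10, for uS10m of the small-subunit head, had 25.5, 30.9 and 28.8 CPM in the EPZ-5676 libraries, against 49.4, 39.4 and 43.1 CPM in the controls (log2 fold change -0.63 ± 0.13, adjusted p = 0.0013). The groups did not overlap in either gene.

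The small-subunit genes that rose were MRPS2 (uS2m), MRPS26 (mS26) and MRPS12. MRPS2 had 119, 108 and 105 CPM in the EPZ-5676 libraries, against 70.3, 87.9 and 88.8 CPM in the controls (log2 fold change 0.42 ± 0.11, adjusted p = 0.00631), and MRPS26 had 80.7, 74.6 and 74.5 CPM in the EPZ-5676 libraries, against 57.8, 60.3 and 54.7 CPM in the controls (log2 fold change 0.41 ± 0.10, adjusted p = 0.00516). MRPS12 encodes uS12m, which sits at the decoding site. It had 128, 93.8 and 102 CPM in the EPZ-5676 libraries, against 80.5, 87.3 and 75.6 CPM in the controls (log2 fold change 0.41 ± 0.12, adjusted p = 0.00989), and its call was lost without control 3 or without EPZ-5676 1. The treated values were above all controls in all 3 genes.

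MRPS30, MRPS36, MRPL57 and MRPL58 did not move together. MRPS30, which encodes the large-subunit protein mL65, fell: it had 58.7, 61.6 and 69.03 CPM in the EPZ-5676 libraries, against 100, 87.8 and 84.8 CPM in the controls (log2 fold change -0.53 ± 0.11, adjusted p = 0.00136). MRPS36 fell as well, at 7.18, 7.38 and 7.79 CPM in the EPZ-5676 libraries, against 9.91, 15.2 and 9.06 CPM in the controls (log2 fold change -0.61 ± 0.20, adjusted p = 0.0249), but its call was lost without control 2 or any 1 of the EPZ-5676 libraries. MRPL58 encodes a peptidyl-tRNA hydrolase (mL62) built into the large subunit and had 44.8, 38.1 and 38.1 CPM in the EPZ-5676 libraries, against 42.5, 42.0 and 38.8 CPM in the controls (log2 fold change -0.03 ± 0.12, adjusted p = 0.887). MRPL57, for mL63, had 34.8, 32.3 and 29.1 CPM in the EPZ-5676 libraries, against 33.6, 38.0 and 28.1 CPM in the controls (log2 fold change -0.05 ± 0.14, adjusted p = 0.802). Both groups overlapped in MRPL58 and in MRPL57.

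The MRPS18 genes are 3 paralogs that code for different ribosomal proteins. Beside the rise of MRPS18A, MRPS18B (mS40) had 158, 173 and 146 CPM in the EPZ-5676 libraries, against 137, 149 and 143 CPM in the controls (log2 fold change 0.15 ± 0.10, adjusted p = 0.261). MRPS18C (bS18m) had 5.09, 5.64 and 5.46 CPM in the EPZ-5676 libraries, against 6.31, 6.30 and 5.36 CPM in the controls (log2 fold change -0.15 ± 0.21, adjusted p = 0.624). Neither passed the threshold, and the groups overlapped in both. The differences between the paralogs' responses were not tested. Per kilobase of annotated exon, MRPS18B stood highest, at 84.1 in EPZ-5676 cells and 75.8 in controls CPM per kilobase, followed by MRPS18A at 31.7 in EPZ-5676 cells and 21.1 in controls and MRPS18C at 1.11 in EPZ-5676 cells and 1.23 in controls.

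GC content sorted the members by direction. When the 78 genes were split into 3 bands of 26 by the GC content of the longest annotated transcript, the lowest band (33.5% to 44.1%) held 17 genes that were lower and 0 that were higher. The highest band (51.9% to 72.0%) held 15 that were higher and 0 that were lower. The middle band held 2 higher and 3 lower. All genes tested within the same GC limits leaned the same way, but with smaller shares called. In the lowest band 44.7% of all genes were lower and 0.555% higher, against 65.4% and 0% of the members. In the highest band 33.0% of all genes were higher and 1.49% lower, against 57.7% and 0% of the members. These differences in shares were not tested. The median log2 fold changes were -0.50, -0.04 and 0.35 for the members of the low, middle and high band, and -0.52, -0.14 and 0.30 for all genes.

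Across the 78 genes, which are not independent replicates and share the same 6 libraries, the log2 fold change correlated with transcript GC content at Pearson r = 0.76 and Spearman rho = 0.78. Over all genes tested, r was 0.59 and rho was 0.66. With the GC content of the coding sequence alone, r across the members was 0.84, and with that of the 3′ untranslated region it was 0.79 (77 genes with a long enough region). The plot of fold change against GC content shows the members along the curve of all genes.

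**Figure D2:**
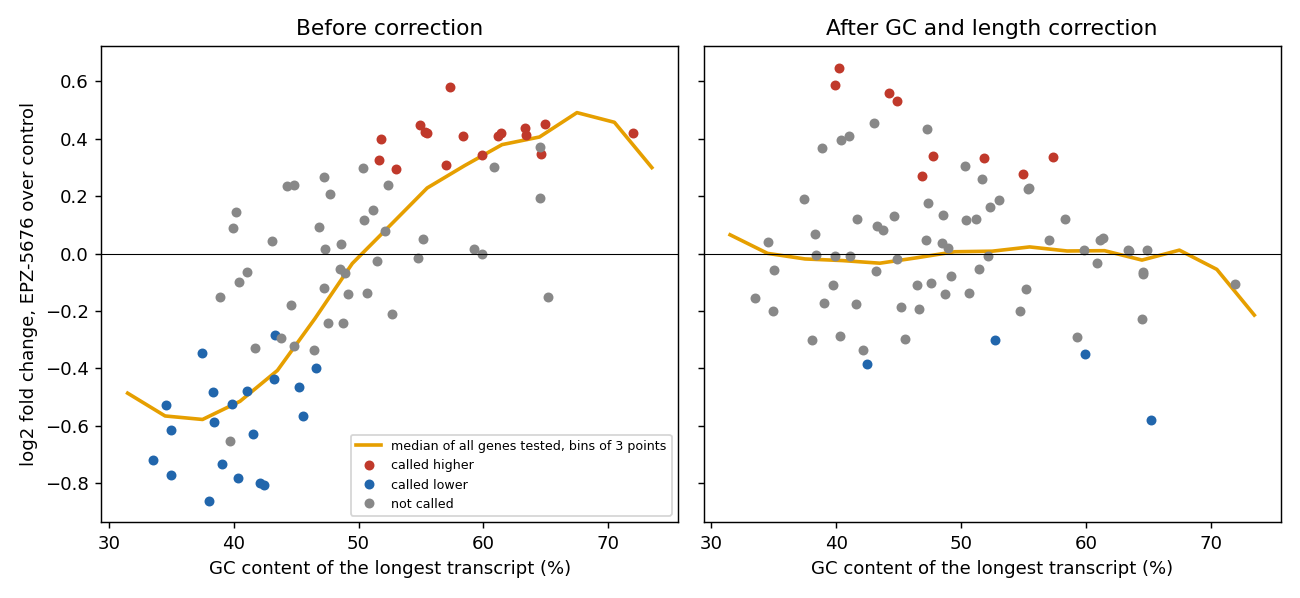
Log2 fold change (EPZ-5676 over control) of the 78 genes against the GC content of the longest transcript in percent, before the correction on the left and after the GC and length correction on the right. Points are genes, coloured by call, and the line is the median of all genes tested in bins of 3 percentage points. Before the correction the points climb with the line (r = 0.76), and after it they scatter around 0 (r = -0.16).

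Libraries of the same group also differed from each other along GC content, by less. Per 10 percentage points of GC content, the members' log2 difference between the EPZ-5676 and control means changed by 0.32 (0.34 over all genes). Set against the other libraries of its own group, EPZ-5676 1 changed by 0.10, EPZ-5676 2 by -0.02 and EPZ-5676 3 by -0.08, and control 1 by -0.11, control 2 by 0.06 and control 3 by 0.04. Over all genes the steepest of these trends were 0.17 in control 2, -0.15 in control 1 and 0.13 in EPZ-5676 1. The part of GC content in the fold changes between the groups was not tested, because the trend and the treatment cannot be told apart across groups that differ in both.

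**Figure D3:**
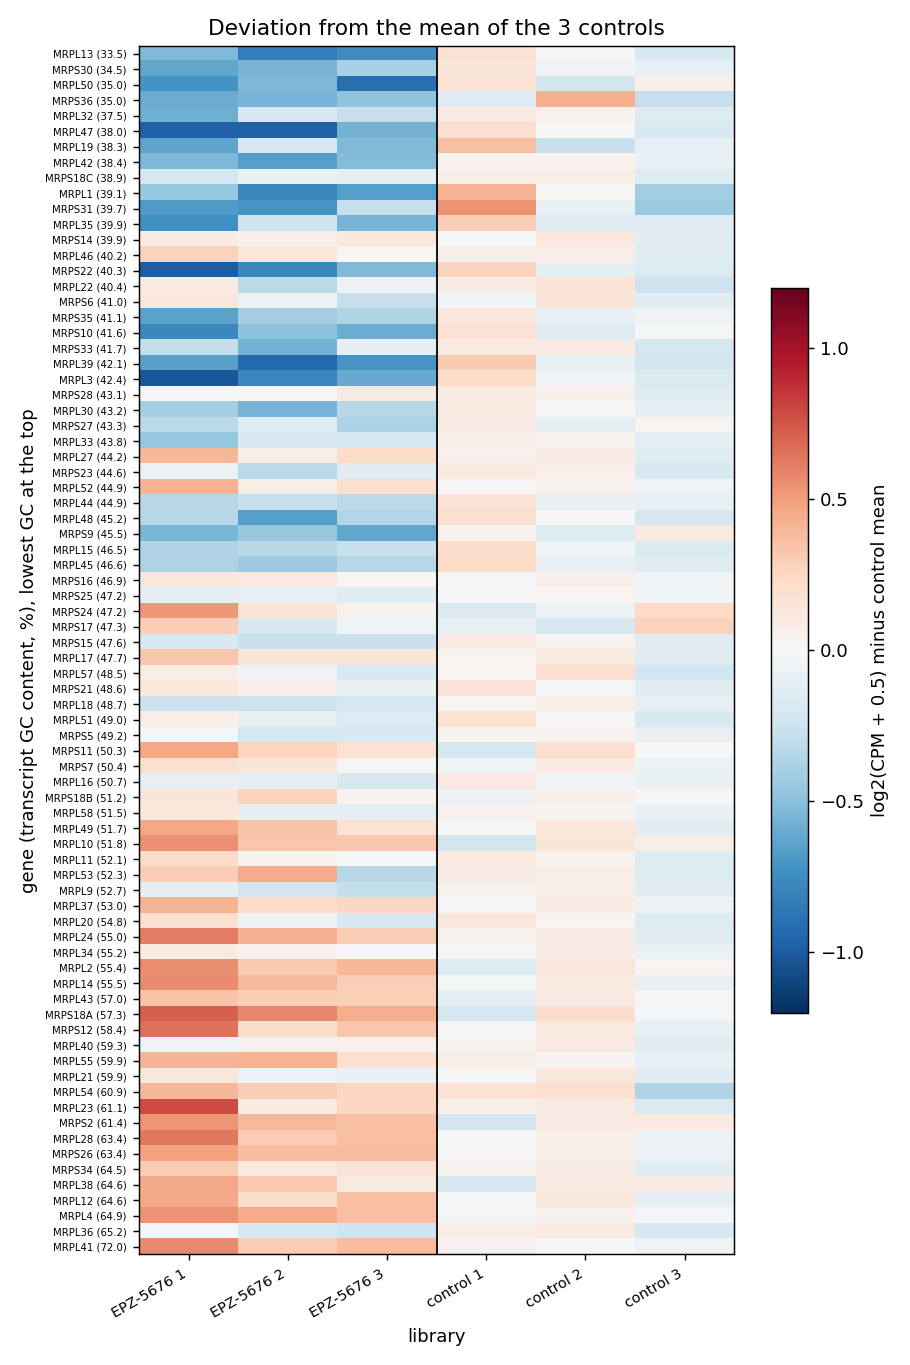
Each row is 1 of the 78 genes, sorted from the lowest transcript GC content at the top to the highest at the bottom, and each column is a library, with EPZ-5676 1 to 3 left of control 1 to 3. Colour gives log2(CPM + 0.5) minus the mean of the 3 controls. The EPZ-5676 columns run from blue at the top to red at the bottom. The strongest reds are mostly in EPZ-5676 1, while the strongest blues are spread over the 3 EPZ-5676 libraries.

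A correction that removes smooth trends of each library with transcript GC content and length was therefore set beside the plain test. It also removes any effect of the treatment that follows those properties. After it, 9 members were higher, where 5.41% of all genes were, and 4 were lower, where 5.57% of all genes were. Their median log2 fold change was 0.01, and the SD was 0.25 against 0.47 over all genes. The 9 genes comprised 7 of the large and 2 of the small subunit, and the 4 were all of the large subunit. Of the 17 genes higher before, 14 were no longer called, and of the 20 lower, 19 were no longer called, while 32 members were called in neither fit. Of the 37 genes called before, 6 had the other sign after it, among them MRPL12, MRPL41 (-0.11) and MRPS30 (0.0391).

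MRPL3, MRPL10, MRPL24 and MRPS18A were called in the same direction by both fits. For MRPL3 (chromosome 3, 131462212 to 131502983, minus strand) the corrected log2 fold change was -0.38 ± 0.09 (adjusted p = 0.00868), and the call held in 24 of 25 alternative settings, with an adjusted p of 0.0637 under the correction without EPZ-5676 1. MRPL10 (chromosome 17, 47823272 to 47831534) had a corrected value of 0.33 ± 0.09 (adjusted p = 0.019) and was called in 22 of 25 settings. For MRPL24 (chromosome 1, 156737303 to 156741590) it was 0.28 ± 0.08 (adjusted p = 0.0298), called in 20 settings. For MRPS18A (chromosome 6, 43671303 to 43687791) it was 0.34 ± 0.10 (adjusted p = 0.0368), called in 18 settings. Both MRPL24 and MRPS18A lost the call under a correction for GC content alone, and MRPS18A also under the correction with the replicate block. When 1 library was left out under the GC and length correction, MRPS18A kept its call only without control 2. MRPL24 lost it without control 2, control 3, EPZ-5676 1 or EPZ-5676 2, and MRPL10 without control 1 or EPZ-5676 1. In MRPS18A, 47.0% of the exonic bases are shared with RSPH9 on the opposite strand, which was at 0.279 CPM in EPZ-5676 cells and 0.253 CPM in controls.

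**Figure D4:**
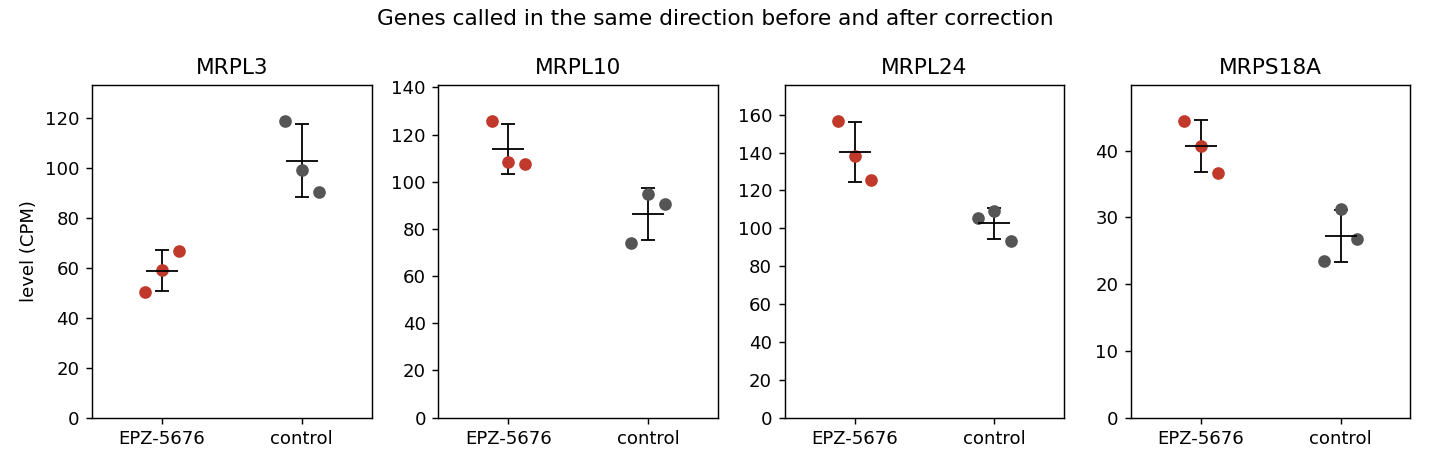
Level in CPM of MRPL3, MRPL10, MRPL24 and MRPS18A in the EPZ-5676 libraries on the left of each panel and the controls on the right. Points are libraries, and the horizontal mark and bar are the mean ± SD of 3. MRPL3 lies lower in all 3 EPZ-5676 libraries and the other 3 genes lie higher, with no overlap.

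Another 6 genes passed the threshold as higher only after the correction. In MRPS14 (uS14m) the level was 20.8, 20.4 and 21.3 CPM in the EPZ-5676 libraries, against 19.6, 21.3 and 17.8 CPM in the controls, so that the groups overlapped, and the log2 fold change was 0.09 before and 0.59 ± 0.13 after the correction (adjusted p = 0.00599). MRPL46 (mL46) had 11.1, 9.95 and 9.15 CPM in the EPZ-5676 libraries, against 9.48, 9.62 and 8.23 CPM in the controls, with log2 fold changes of 0.15 before and 0.65 ± 0.18 after (adjusted p = 0.0205). MRPL27 encodes bL27m, a neighbour of the peptidyl transferase centre. It had 63.4, 50.4 and 55.7 CPM in the EPZ-5676 libraries, against 49.8, 50.8 and 43.4 CPM in the controls, with log2 fold changes of 0.23 before and 0.56 ± 0.11 after (adjusted p = 0.00202). The GC content of these genes is 39.9%, 40.2% and 44.2% in the longest transcript, which the correction used. In the coding sequence it is 51.0%, 53.05% and 54.3%, and the part of this difference in the corrected calls was not tested.

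The other 3 were MRPL52 (mL52), MRPL17 (bL17m) and MRPS16 (bS16m). MRPL52 had 54.7, 42.9 and 46.7 CPM in the EPZ-5676 libraries, against 40.5, 42.2 and 39.6 CPM in the controls, with log2 fold changes of 0.24 before and 0.53 ± 0.11 after the correction (adjusted p = 0.00293). MRPL17 had 318, 280.4 and 279 CPM in the EPZ-5676 libraries, against 257, 273 and 229.9 CPM in the controls, with 0.21 before and 0.34 ± 0.08 after (adjusted p = 0.01). MRPS16 had 209.9, 206 and 194 CPM in the EPZ-5676 libraries, against 187, 198 and 186 CPM in the controls, with 0.09 before and 0.27 ± 0.08 after (adjusted p = 0.0254). In MRPL52 and MRPL17 the treated values lay above the controls, and in MRPS16 they overlapped.

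MRPL36, MRPL21 and MRPL9, for bL36m, bL21m and bL9m, passed as lower only after the correction. The GC content of MRPL36 is 65.2% in the longest transcript and 55.0% in the coding sequence. MRPL36 had 74.5, 66.8 and 64.0 CPM in the EPZ-5676 libraries, against 80.2, 81.8 and 66.0 CPM in the controls. Its groups overlapped, and its log2 fold change was -0.15 before and -0.58 ± 0.09 after the correction (adjusted p = 0.000353). MRPL21 had 83.7, 72.8 and 71.7 CPM in the EPZ-5676 libraries, against 76.3, 83.4 and 68.8 CPM in the controls, with -0.00188 before and -0.35 ± 0.09 after (adjusted p = 0.0101), but 0.0309 when the correction took coding transcripts alone. MRPL9 had 46.7, 43.2 and 41.3 CPM in the EPZ-5676 libraries, against 52.0, 53.6 and 46.3 CPM in the controls, with -0.21 before and -0.30 ± 0.09 after (adjusted p = 0.0353). The values of MRPL21 and MRPL9 overlapped between the groups too.

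Single libraries moved these counts. Before the correction, 10 members were higher without control 3 and 9 without EPZ-5676 1, and 13 were lower without control 1. The calls of 9 of the 17 higher and 11 of the 20 lower members held whichever library was left out. After the correction, 5, 4 and 3 members were higher without control 1, control 3 and EPZ-5676 1, and 2 were lower without EPZ-5676 1 or without EPZ-5676 3.

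The levels themselves were compared per kilobase of annotated exon, as CPM per kilobase (RPKM). Over the 78 genes the RPKM ran from 0.562 to 212 in EPZ-5676 cells (median 18.04) and from 0.434 to 185 in controls (median 20.2). Ordered by the mean of all 6 libraries, MRPS34 stood highest, at 212 in EPZ-5676 cells and 185 in controls, followed by MRPL17 at 128 in EPZ-5676 cells and 111 in controls, MRPL37 at 118 in EPZ-5676 cells and 96.4 in controls and MRPL14 at 122 in EPZ-5676 cells and 91.4 in controls. MRPS34 encodes mS34 and had 251, 220.4 and 225 CPM in the EPZ-5676 libraries, against 209, 216 and 184 CPM in the controls, with no overlap but no call (log2 fold change 0.19 ± 0.10, adjusted p = 0.148). MRPL37, for mL37, had 327, 287 and 291 CPM in the EPZ-5676 libraries, against 241, 261 and 236 CPM in the controls (log2 fold change 0.30 ± 0.10, adjusted p = 0.0254), and omitting any of 4 libraries ended the call. MRPL14 lay above MRPL37 in EPZ-5676 cells and below it in controls, and MRPL51, next in the order, was at 104 in EPZ-5676 cells and 109 in controls, above both in controls.

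By the same mean, the lowest RPKM values came from MRPL38 (0.562 in EPZ-5676 cells and 0.434 in controls), MRPL53 (0.850 in EPZ-5676 cells and 0.717 in controls), MRPS18C (1.11 in EPZ-5676 cells and 1.23 in controls) and MRPL42 (1.10 in EPZ-5676 cells and 1.65 in controls), named here for their place in the order. Of the 78 genes, 10 share over 10% of their exonic bases with a gene on the same strand, and their median RPKM was 2.04 in EPZ-5676 cells and 1.85 in controls. The other 68 had medians of 19.97 in EPZ-5676 cells and 20.99 in controls. MRPL38 and MRPL53 are among the 10, with 37.5% and 45.2% of their exonic bases shared. No source used here says whether reads in the shared bases were counted, and the part of this overlap in the low levels was not tested. On the opposite strand, over 10% of the exonic bases of MRPL2, MRPL4, MRPL9, MRPS2, MRPS12, MRPS14, MRPS16, MRPS18A and MRPS18C are shared with another gene, and as the strand setting of the counting is unknown, their counts are uncertain to that extent. The share was 14.7% with KLC4 for MRPL2, and KLC4 had a log2 fold change of 0.48 itself.

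**Figure D5:**
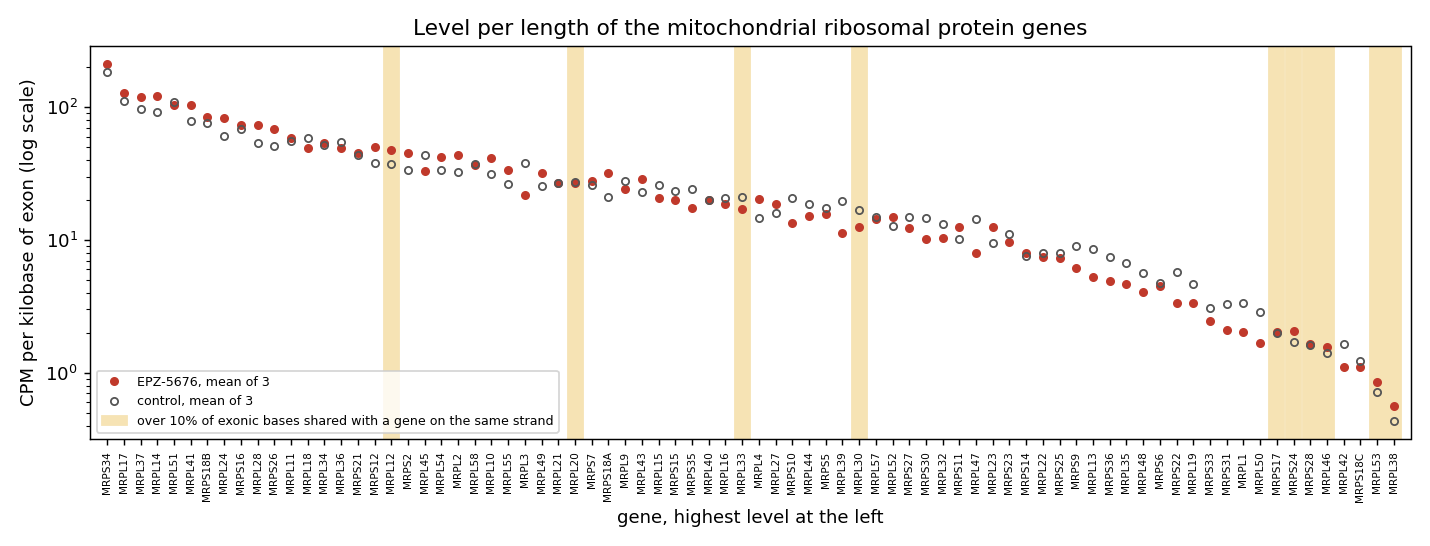
Mean CPM per kilobase (log scale) of the 78 genes, ordered from the highest on the left, with EPZ-5676 as filled and controls as open points (mean of 3 libraries each). Shaded genes share over 10% of their exonic bases with another gene on the same strand. The levels span from 198 for MRPS34 to 0.498 for MRPL38 over all 6 libraries.

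Some of the members' promoters hold short sequences that the choice of the genes did not use. RefSeq windows (GRCh38.p14) of 250 bases before to 50 bases after the start were held for 69 of the 78 genes and for 27305 genes in all. Each was searched on both strands for a core bound by ETS factors (CCGGAAG), a core bound by YY1 (AAGATGGC) and the NRF1 palindrome (CGCATGCG), none of which contains another. Factors of these families are known regulators of nuclear genes for mitochondrial proteins. The windows of MRPL3 (chr3:131502922-131503221), MRPL47 (chr3:179604589-179604888), MRPL24 (chr1:156741039-156741338) and MRPS18A (chr6:43687742-43688041), all on the minus strand, show 2 genes that fell and 2 that rose. They are written 5′ to 3′ on the gene's strand, with matches in capitals.
MRPL3: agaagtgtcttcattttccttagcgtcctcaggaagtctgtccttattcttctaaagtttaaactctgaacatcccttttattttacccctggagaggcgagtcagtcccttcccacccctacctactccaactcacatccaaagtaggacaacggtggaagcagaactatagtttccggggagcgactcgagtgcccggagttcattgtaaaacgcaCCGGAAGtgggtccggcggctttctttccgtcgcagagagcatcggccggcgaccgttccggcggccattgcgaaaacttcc
MRPL47: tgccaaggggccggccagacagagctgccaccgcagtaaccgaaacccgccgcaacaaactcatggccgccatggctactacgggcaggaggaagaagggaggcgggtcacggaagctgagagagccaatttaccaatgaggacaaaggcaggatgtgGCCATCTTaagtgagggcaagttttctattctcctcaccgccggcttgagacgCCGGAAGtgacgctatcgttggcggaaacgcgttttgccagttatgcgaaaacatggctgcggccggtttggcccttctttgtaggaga
MRPL24: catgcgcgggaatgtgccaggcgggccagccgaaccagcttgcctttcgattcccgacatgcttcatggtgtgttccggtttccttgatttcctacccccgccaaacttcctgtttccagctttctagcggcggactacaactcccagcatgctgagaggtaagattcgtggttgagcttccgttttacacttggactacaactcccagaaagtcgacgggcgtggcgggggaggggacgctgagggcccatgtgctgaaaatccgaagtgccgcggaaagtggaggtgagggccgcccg
MRPS18A: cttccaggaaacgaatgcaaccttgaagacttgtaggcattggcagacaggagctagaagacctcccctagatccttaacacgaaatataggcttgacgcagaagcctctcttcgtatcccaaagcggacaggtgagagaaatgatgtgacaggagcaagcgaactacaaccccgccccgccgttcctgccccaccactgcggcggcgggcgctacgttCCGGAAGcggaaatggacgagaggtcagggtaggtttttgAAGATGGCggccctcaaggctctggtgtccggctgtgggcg
MRPL3 carries the ETS letters, MRPL47 the ETS letters and the YY1 letters read on the other strand (GCCATCTT), MRPS18A the ETS and the YY1 letters, and MRPL24 none of the 3. The ETS letters occurred in 29 members (42%) and in 10.7% of all windows. The YY1 letters occurred in 20 members (29%) and in 3.03% of all windows, and the NRF1 letters in 3 members (4.35%) and in 2.19% of all windows. The 27305 windows were not limited to protein-coding or expressed genes, as the members are. These shares therefore cannot show whether the members differ from other expressed genes.

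Genes that rose and genes that fell both carried the ETS and the YY1 letters. The ETS letters were in 5 of the 14 windows of members called higher, in 6 of the 17 of members called lower and in 18 of the 38 of the rest. The YY1 letters were in 2 of 14, 8 of 17 and 10 of 38 of the higher, lower and other members. The NRF1 letters were in 0 of 14, 0 of 17 and 3 of 38. A match describes the sequence and does not show that a factor binds there.

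Another 5 proteins of the mitochondrial ribosome have genes without an MRP symbol, and these moved in both directions as well. DAP3 (mS29) and PTCD3 (mS39), of the small subunit, were lower and GADD45GIP1 (mL64), of the large subunit, was higher. PTCD3 had 11.6, 20.6 and 19.2 CPM in the EPZ-5676 libraries, against 35.3, 23.4 and 31.8 CPM in the controls (log2 fold change -0.81 ± 0.19, adjusted p = 0.00282). GADD45GIP1 had 409, 325 and 334 CPM in the EPZ-5676 libraries, against 299, 289.8 and 238 CPM in the controls (log2 fold change 0.37 ± 0.11, adjusted p = 0.0161). DAP3 had 125, 117 and 117 CPM in the EPZ-5676 libraries, against 154, 147 and 137 CPM in the controls (log2 fold change -0.29 ± 0.10, adjusted p = 0.0282). The calls of GADD45GIP1 and DAP3 depended on single libraries, and after the correction none of the 3 was called while CHCHD1 (mS37) was (log2 fold change 0.33, adjusted p = 0.0487), a call that 5 of the 6 omissions of a library ended.

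Of 27 factors that assemble the ribosome or modify its RNA, 5 were higher and 4 lower, or 18.5% and 14.8%, near the 15.0% and 18.7% of all genes tested, and after the correction 3 were higher and 1 lower. Before the correction, 3 were higher without control 3 or without EPZ-5676 1, and 2 were lower without EPZ-5676 1. RPUSD3, a pseudouridine synthase, had 192, 164 and 162 CPM in the EPZ-5676 libraries, against 114, 126 and 119 CPM in the controls. It rose in the plain test (log2 fold change 0.53 ± 0.10, adjusted p = 0.000836) and likewise with the correction (0.42 ± 0.08, adjusted p = 0.00124), and both calls held whichever library was left out. NOA1, for a GTPase of ribosome assembly, named here after its values were seen, had 34.6, 33.0 and 33.1 CPM in the EPZ-5676 libraries, against 44.9, 42.8 and 46.4 CPM in the controls. It fell in the plain test (log2 fold change -0.41 ± 0.12, adjusted p = 0.00958), and the corrected value was -0.58 ± 0.10 (adjusted p = 0.000463). Its calls held in the same way. The helicase gene DHX30 rose (0.48 ± 0.10, adjusted p = 0.00174), as did MRM1, for a methyltransferase of the large ribosomal RNA (0.59 ± 0.16, adjusted p = 0.00745). The RNA-binding protein gene GRSF1 fell (-0.44 ± 0.10, adjusted p = 0.00324). After the correction those 3 were no longer called, and with 1 library left out the corrected counts ran from 1 to 4 higher, with 1 lower.

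Of 12 mitochondrial translation factors, 2 were higher and 5 lower, or 16.7% and 41.7%, against 15.0% and 18.7% of all genes tested. The factors had a median log2 fold change of -0.46 and a median transcript GC content of 42.3%, against 47.7% for the 78 genes. GFM1, for the elongation factor that moves the ribosome along, had 16.6, 18.4 and 15.3 CPM in the EPZ-5676 libraries, against 34.2, 23.6 and 30.5 CPM in the controls (log2 fold change -0.81 ± 0.15, adjusted p = 0.000756). GFM2, for a ribosome recycling factor, had 14.8, 15.7 and 22.2 CPM in the EPZ-5676 libraries, against 35.8, 29.4 and 30.3 CPM in the controls (log2 fold change -0.85 ± 0.16, adjusted p = 0.000643). The initiation factor gene MTIF2 fell (-0.80 ± 0.17, adjusted p = 0.00195), and TACO1, for an activator of cytochrome oxidase translation, rose (0.44 ± 0.11, adjusted p = 0.00446). After the correction 2 were higher and 1 lower, with a median of -0.07, and GFM2 was the one lower (-0.46, adjusted p = 0.0227). Without EPZ-5676 1 or without control 1 the number of lower factors before the correction was 3, and the corrected counts ran from 0 to 2 higher and 0 to 1 lower when 1 library was left out.

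Of 17 mitochondrial aminoacyl-tRNA synthetases, which charge the tRNAs that the ribosome uses, 4 were higher and 3 lower. These shares, 23.5% and 17.65%, stand against 15.0% and 18.7% of all genes tested. After the correction 1 was higher, or 5.88%, against 5.41% of all genes. Without control 1, 1 was lower before the correction, and after it 0 were higher without EPZ-5676 1 and 2 without EPZ-5676 2. VARS2 rose (log2 fold change 0.56 ± 0.11, adjusted p = 0.00116), as did TARS2 (0.44 ± 0.11, adjusted p = 0.00419), and IARS2 fell (-0.53 ± 0.12, adjusted p = 0.00312). PARS2, for the prolyl-tRNA synthetase, had 15.1, 10.46 and 10.97 CPM in the EPZ-5676 libraries, against 5.08, 8.30 and 6.62 CPM in the controls and rose. The log2 fold change was 0.87 ± 0.21 in the plain test (adjusted p = 0.00378), and the correction left a rise (0.71, adjusted p = 0.0135) whose call 2 of the 6 omissions ended.

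Of 12 regulators of mitochondrial biogenesis, 1 was higher and 3 lower, or 8.33% and 25.0%, against 15.0% and 18.7% of all genes tested. YY1, whose binding letters 20 of the members' 69 promoter windows hold, had 85.7, 88.8 and 92.9 CPM in the EPZ-5676 libraries, against 134, 114 and 131 CPM in the controls. A link between the level of YY1 and those members was not tested. YY1 fell in the plain test (log2 fold change -0.51 ± 0.10, adjusted p = 0.00109) and likewise with the correction (-0.40 ± 0.08, adjusted p = 0.00175), whichever library was left out. PPARGC1A, for a coactivator of mitochondrial genes, was low, with 1.71, 1.94 and 2.40 CPM in the EPZ-5676 libraries, against 4.78, 4.52 and 5.49 CPM in the controls (log2 fold change -1.28 ± 0.27, adjusted p = 0.00137). The corrected value was -0.80 (adjusted p = 0.039), a call lost whichever library was left out. POLRMT, for the RNA polymerase of mitochondria, rose before the correction (0.50 ± 0.11, adjusted p = 0.00205) and was not called after it (0.05, adjusted p = 0.769). TFAM, for a packaging and transcription factor of mitochondrial DNA, fell before it (-0.47 ± 0.17, adjusted p = 0.0399), a call that 4 of the 6 omissions ended, and was not called after it (0.09, adjusted p = 0.766). MYC had 163, 173 and 165 CPM in the EPZ-5676 libraries, against 169, 197 and 219 CPM in the controls and was lower only after the correction (-0.38, adjusted p = 0.00449).

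The 13 messenger RNAs that the mitochondrial ribosome translates summed to 24572, 21530 and 22154 CPM in the EPZ-5676 libraries, against 17059, 22365 and 21362 CPM in the controls. Control 1 was the lowest, and the groups overlapped. Of the 13, 4 were higher and 0 lower, and after the correction 9 were higher and 0 lower. The higher shares were 30.8% before and 69.2% after the correction, against 15.0% and 5.41% of all genes tested. The 13 all come from mitochondrial DNA and share the same libraries, so they are not independent and the shares do not count separate changes. Their median transcript length was 784 bases, against 3210 over all genes tested. Their median log2 fold change was 0.21 before and 0.55 after the correction, and the part of length in this was not tested. MT-CO2, for a cytochrome oxidase subunit, had 3231, 2880 and 2914 CPM in the EPZ-5676 libraries, against 1857, 2745 and 2545 CPM in the controls (log2 fold change 0.34 ± 0.12, adjusted p = 0.0413), and its corrected value was 0.58 (adjusted p = 0.00985). Without control 1 none of the 13 was called before the correction and 9 were after it, and without EPZ-5676 1 the counts were 0 and 4. Over all libraries left out in turn, 0 to 9 were higher before and 4 to 12 after the correction. In these libraries, made from poly(A)-selected RNA, the mitochondrial genes took 2.36% to 2.77% of the reads.

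The 83 tested genes for proteins of the cytosolic ribosome gave 13 higher and 16 lower, with a median log2 fold change of 0.02, and 10 higher and 7 lower after the correction. These shares, 15.7% and 19.3% before the correction, lay near the 15.0% and 18.7% of all genes tested. Before the correction, 7 were higher without control 3 and 6 without EPZ-5676 1. After it, 6 were higher without control 1 and 18 without control 2, and the number lower was 2, 4 and 12 without controls 1, 2 and 3, and 4, 2 and 1 without EPZ-5676 1, 2 and 3. RPS24 had 688, 636 and 686 CPM in the EPZ-5676 libraries, against 1256, 1163 and 907 CPM in the controls (log2 fold change -0.73 ± 0.11, adjusted p = 0.000194), and RPL23A had 176, 169 and 190.0 CPM in the EPZ-5676 libraries, against 268, 253 and 228 CPM in the controls (log2 fold change -0.48 ± 0.10, adjusted p = 0.00134). RPL23A was also lower after the correction (-0.45, adjusted p = 0.0008). The cytosolic genes have many processed pseudogenes, so their counts are uncertain. The mitochondrial ribosome makes the partner subunits of complex I, for which 37 nuclear genes were listed. These include NDUFA4, whose product is now placed in cytochrome oxidase. Before the correction 8 were higher and 4 lower, or 21.6% and 10.8%. After it 8 were higher, NDUFA4 among them, and 1 lower, or 21.6% and 2.70%, against 5.41% and 5.57% of all genes tested. Without control 3 or without EPZ-5676 1, 5 were higher before the correction, and after it 3 and 1 were, while 5 were without control 1 or without EPZ-5676 3. NDUFS4 had 15.4, 15.5 and 14.2 CPM in the EPZ-5676 libraries, against 31.1, 28.8 and 22.9 CPM in the controls (log2 fold change -0.88 ± 0.15, adjusted p = 0.000364), and its corrected value was -0.45 (adjusted p = 0.0245), a call that 4 of the 6 omissions ended. NDUFB2, named here after its values were seen as the rise with the smallest corrected p, had 50.3, 45.9 and 41.8 CPM in the EPZ-5676 libraries, against 35.5, 40.6 and 30.7 CPM in the controls. It was higher before the correction (0.37 ± 0.13, adjusted p = 0.0303), a call that 4 of the 6 omissions ended, and after it (0.66, adjusted p = 0.000828), a call that none ended.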

How the data were processed

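The deposited table holds whole-number read counts per gene, with an exonic gene length in bases. The aligner was HISAT2 2.2.1 and the build GRCh38, per the submitters' processing notes. RNA was selected with oligo(dT) and libraries used dUTP, per the labels' protocols. The counting tool, its strand setting and its annotation were not given in the sources used here. Each of the 58735 genes had the coordinates of GENCODE release 29.

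The test was that of edgeR 4.0.16 under R 4.3.3 (TMM, filterByExpr with a minimum count of 10, robust quasi-likelihood F test, two-sided), with Benjamini-Hochberg adjustment over 15496 genes and calls at an adjusted p under 0.05. Errors of log2 fold changes are SEs. The correction enters, as offsets, each library's natural splines (5 degrees of freedom) on GC content and log length of the longest transcript, with median values for 9 genes without a sequence. Coding sequences are of APPRIS principal transcripts. The fits were also run on simulated data, where a GC trend, if present, was linear and equal in all treated libraries. The real libraries differed in their GC trends within a group. The simulated runs therefore cannot check the corrected calls.

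Alternatives were other scalings and filters (minimum count 50, or none), limma-voom (limma 3.58.1), DESeq2 1.42.0, a replicate block, partial corrections, a table of protein-coding genes alone, and the omission of each library. A correction from coding transcripts was chosen after seeing the data. No 2 libraries of a group agreed within sampling noise (chi-square per degree of freedom 11.8 to 37.5).

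The members and lists were chosen with earlier results of these data known. Named with values were the 10 largest rises and falls among called members whose groups did not overlap, up to 10 per direction called after the correction, the 4 highest by RPKM, the MRPS18 paralogs, MRPS30, MRPS36, MRPL57 and MRPL58. From each related list, some or all of up to 4 called genes with the smallest p were named. In the cytosolic list RPL7 and RPL26 had a smaller p than RPL23A and were left out. CHCHD1 and MYC were named for a call after the correction only.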

Additional observations from a re-analysis of the deposited data

How the results depend on the processing

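The counts of called members depended on the handling of GC content and on single libraries. Against 17 higher and 20 lower, the replicate block gave 11 and 13, the GC and length correction 9 and 4, the GC correction alone 7 and 4, the correction from coding transcripts 9 and 6, and the correction with the replicate block 8 and 3. Leaving out 1 library, with or without the correction, gave 3 to 20 higher and 2 to 19 lower. The deviations of same-numbered libraries correlated at -0.11, -0.09 and 0.05, and those of differently numbered libraries at -0.08 to 0.15. No pairing by replicate number was seen, but with 3 libraries per group these values cannot decide whether libraries shared a culture or batch. RLE and upper-quartile scaling, both filters, the length correction alone, protein-coding genes alone, limma-voom and DESeq2 gave 16 to 18 higher and 18 to 21 lower. The median log2 fold change stayed between -0.11 and 0.06 in all settings run.

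Of the values of 37 named members over 25 alternatives, 592 kept direction and side of the threshold, 188 lost and 69 gained the call, and 76 changed sign, 33 of them with a call before or after. MRPL41 turned to -0.11 under the correction and under GC alone, -0.10 with the replicate block and -0.0913 from coding transcripts. MRPS30 turned to 0.0391 under the correction, 0.0412 under GC alone and 0.0417 under the correction with the replicate block, MRPL42 to 0.00576 under the same, MRPS26 to -0.00364 under GC alone and MRPS34 to -0.23 under the correction, -0.2447 under GC alone, -0.2236 with the replicate block and -0.2372 from coding transcripts, called under the last. Without a call in either fit, under the same 4 corrections, MRPL57 turned to 0.0385, 0.0480, 0.0462 and 0.0931, and MRPS18C to 0.37, 0.3786, 0.3766 and 0.4075. MRPL21 turned to 0.0377 under RLE scaling and DESeq2, 0.0125 under upper-quartile scaling, 0.00226 with a minimum count of 50 and 0.0309 from coding transcripts, and MRPL58 to 0.0142 under RLE scaling and 0.0140 under DESeq2. With 1 library left out, with or without the correction, the log2 fold changes ran from -0.17 to 0.47 for MRPL41, from -0.60 to 0.10 for MRPS30, from -0.63 to 0.17 for MRPL42, from -0.0355 to 0.46 for MRPS26, from -0.28 to 0.25 for MRPS34, from -0.0450 to 0.50 for MRPL28, from -0.0344 to 0.49 for MRPL4 from -0.76 to 0.30 for MRPS36, from -0.41 to 0.0832 for MRPL21, from -0.16 to 0.15 for MRPL57, from -0.11 to 0.0135 for MRPL58 and from -0.22 to 0.50 for MRPS18C. The cause of these shifts was not tested. With 2 libraries left in a group, the spread was estimated over 5 libraries.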

Other observations

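The table lists 75 pseudogenes of mitochondrial ribosomal protein genes. Of these, 9 had at least 1 read and 3 were tested, and together they summed to 8.10 ± 0.929 CPM in EPZ-5676 cells and 10.7 ± 0.718 CPM in controls (SD, n = 3 each), 0.19% of the level of the 78 genes. Only MRPL45P2 averaged 1 CPM or more, at 7.56 CPM in EPZ-5676 cells and 9.80 CPM in controls. Its log2 fold change was -0.37 (adjusted p = 0.128).

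Exons of 15 members overlap a gene on the opposite strand by over 10% of their bases. The partner of MRPS14 is CACYBP, at 52.4 CPM in EPZ-5676 cells and 82.7 CPM in controls (log2 fold change -0.66), while MRPS14 was at 0.09. The partner of MRPS25 is NR2C2, at 20.1 CPM in EPZ-5676 cells and 29.6 CPM in controls (-0.56), while MRPS25 was at -0.12. The partner of MRPL51 is NCAPD2, which was more abundant than the member, at 289 CPM in EPZ-5676 cells and 311 CPM in controls. Among same-strand partners, BABAM2 overlaps 21.1% of the exonic bases of MRPL33 and was at 25.0 CPM in EPZ-5676 cells and 19.3 CPM in controls. The read-through gene URGCP-MRPS24 and the same-strand partners of MRPL12, MRPL20, MRPL46 and MRPS28 had 0 reads in all 6 libraries. AC092647.5, which overlaps 21.8% of the exonic bases of MRPS17 on the same strand, also had 0 reads. NIPSNAP2 overlaps 5.19% of the exonic bases of MRPS17 on that strand and was more abundant than the member. It was at 14.65 CPM in EPZ-5676 cells and 29.26 CPM in controls, against 4.352 and 4.296 CPM for MRPS17.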
